A study of Mus musculus with 18 samples.

Results

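The genes described here encode the proteins of the cytosolic ribosome of the mouse. They were chosen by symbol alone, as every gene of the 2 deposited tables named Rpl or Rps with a number and at most a single letter a, l, x or y after it, together with Rpsa, Rplp0, Rplp1 and Rplp2. This gave 81 of the 17855 genes, 50 of the large (60S) subunit and 31 of the small (40S) subunit, and 80 of them were in both tables (Rpl10l was in the AML12 table only). Rps3a1, Fau and Rack1 also encode ribosome constituents but carry other names, so they stand outside the family as counted here.

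The small subunit decodes the mRNA and the large subunit joins the amino acids. Each particle holds a single copy of nearly every ribosomal protein, and cells make these proteins in matched amounts. In hepatocytes, ribosomes bound to the endoplasmic reticulum make the plasma proteins, albumin among them. The mRNAs of ribosomal proteins belong to the TOP class, which starts with a cytosine followed by a run of pyrimidines. Insulin and amino acids act on the translation of this class through the kinase complex mTORC1 and the cap-binding repressor Larp1.

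Liver RNA came from 6 male db/db mice of the strain B6.Cg-dock7m Leprdb/++/J, in which the leptin receptor does not signal and obesity with diabetes follows. For 9 weeks 3 mice received recombinant mouse serum albumin (rMSA) by vein, in 3 injections of 1.5 mg per g of body weight spaced 3 weeks apart, and 3 mice received saline. Their age is not given in the sources used here. The other 12 libraries came from AML12, a line of wild-type genotype per the labels, derived from hepatocytes of a mouse that carried a transgene for human TGF-alpha. These cells were kept without serum overnight and then exposed for 24 h to vehicle, 10 nM insulin, 600 µM rMSA, or rMSA and insulin together, in 3 libraries each. No source names separate cultures for the libraries of a group, so p-values in AML12 measure the spread between libraries, which may be technical. The comparisons ask how the hepatic transcriptome responded to long treatment with albumin in diabetic mice and how a hepatocyte line responded to albumin with and without insulin.

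Levels are TPM, the share of each gene in the transcripts of a library after division by transcript length, with the same total set for every library. Read numbers cannot be had from these values, so depth is unknown and no counting interval can be given. The livers and the AML12 cells were normalized separately and were tested only within their own table. In the AML12 cells 9 of 12 hepatocyte markers were in the table (Tf, Asgr1 and Ahsg were not), Cps1 was listed at 0 in all 3 vehicle libraries, and Alb was at 48.2 to 69.2 TPM there, against 32790 to 52715 TPM in the saline livers. Insulin libraries 1 and 2 stood apart from insulin library 3: their median tested gene was at 14.6 and 11.2 TPM, against 20.5 TPM in library 3 and 19.1 to 20.9 TPM in the vehicle libraries. How reads that fit several genes were counted is not stated, and 48 of the 81 members share over 50% of their 50-nt windows with transcripts of other genes, so the level of such a member is uncertain.

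Pyrimidine runs exactly at the annotated start were more frequent in the family than among all genes, but most members had none there. Of the 61 members with a RefSeq promoter entry, 14 (23.0%) had a C followed by at least 4 pyrimidines (C or T) exactly at an annotated start, against 3.01% of all 27025 genes, read on the transcribed strand only. Anywhere from 10 bases before the start to 15 bases after it, such a run stood in 39 of the 61 members (63.9%) and in 34.4% of all genes. The starts of 6 members with a run and of 1 without are printed here from RefSeq (GRCm38.p6), each from 15 bases before the start to 15 bases from it, 5′ to 3′ on the transcribed strand, with the run at the start in capitals. They belong to the phosphorylated protein S6, to abundant proteins of both subunits, and to the pair Rps27 and Rps27l, whose values are compared later.
Rps6 (chr4:86857353-86857382, minus strand): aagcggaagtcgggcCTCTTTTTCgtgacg
Rps18 (chr17:33955651-33955680, minus strand): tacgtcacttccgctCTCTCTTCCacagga
Rpl35 (chr2:39005117-39005146, minus strand): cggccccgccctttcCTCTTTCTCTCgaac
Rpl15 (chr14:18270972-18271001, minus strand): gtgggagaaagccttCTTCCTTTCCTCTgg
Rpl28 (chr7:4792950-4792979, plus strand): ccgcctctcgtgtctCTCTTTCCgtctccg
Rps27 (chr3:90213634-90213663, minus strand): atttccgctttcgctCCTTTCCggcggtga
Rps27l (chr9:66946071-66946100, plus strand): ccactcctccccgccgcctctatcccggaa
The longest of these runs was that of Rpl15, with 13 pyrimidines, and Rps6 had 9. The start printed for Rps27l lies in pyrimidine-rich sequence but has no run that begins exactly there. An annotated start can lie a few bases from the start in use, so a run that is absent at the annotated base says nothing of the transcript itself.

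Together the members took 3.10% to 3.21% of all TPM in the saline livers and 3.72% to 4.46% in the rMSA livers. In AML12 they took 26.4% to 27.7% with vehicle and 21.9% to 25.03% with rMSA. With rMSA + insulin the share was 24.0% to 27.2%, and in the 3 insulin libraries it was 33.2%, 35.9% and 26.5%. The rMSA livers therefore lay wholly above the saline livers and the rMSA-treated cells wholly below the vehicle-treated cells, while the insulin libraries spread over more than either. The mean summed level was 31707 ± 635 TPM in saline livers and 40305 ± 3836 TPM in rMSA livers (SD, n = 3 each), which is 27.1% higher. In AML12 it was 272472 TPM with vehicle and 234011 TPM with rMSA, which is 14.1% lower. The rMSA + insulin mean (254740 TPM) was between those of rMSA and vehicle. These sums describe the family and were not tested, and in bulk RNA fewer cells of a type and less RNA per cell cannot be told apart.

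**Figure D1:**
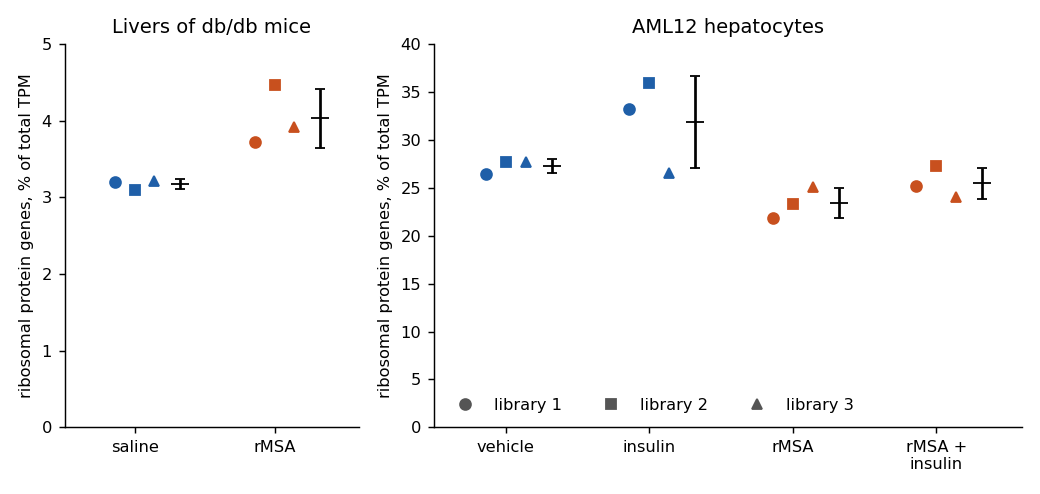
Summed TPM of the ribosomal protein genes as a percentage of all TPM (vertical axes, different scales, both from 0) in each liver library (left) and AML12 library (right). Symbols mark library numbers 1 to 3, orange marks rMSA, and the black bars give the mean and SD of 3 libraries. Saline livers stood at 3.10% to 3.21% and rMSA livers at 3.72% to 4.46%, and insulin libraries 1 and 2 stood at 33.2% and 35.9% and library 3 at 26.5%.

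The 2 subunits kept a nearly fixed proportion. The large-subunit genes summed to 1.46 to 1.48 times the small-subunit genes in saline livers and to 1.52 to 1.55 times in rMSA livers, so the ratio was higher in every rMSA liver. In AML12 it ranged from 1.576 to 1.597 with vehicle and from 1.575 to 1.584 with rMSA, so these groups overlapped. Insulin library 2 had the lowest ratio of all AML12 libraries, 1.49.

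Single members were far from equal. In the livers 66 members averaged between 100 and 1000 TPM and 4 averaged over 1000 TPM, in descending order Rps2, Rpl41, Rpl10 and Rplp1. Rps2 lies near the mRNA entry of the small subunit, Rpl41 is the smallest protein of the particle, and Rplp1 is an acidic protein of the stalk that recruits elongation factors. In AML12, 68 members averaged over 1000 TPM and 62 were among the 100 most abundant genes, against 1 of the 100 most abundant genes in the livers. The highest means there belonged to Rpl23a, Rpl35, Rpl41, Rps26 and Rps12, and the largest, that of Rpl23a, was 8966 TPM.

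Some members were listed far below the others. Rps6, the protein that S6 kinase phosphorylates, averaged 11.7 TPM in livers and 58.5 TPM in AML12, and 84.6% of its 50-nt windows also occur in transcripts of 14 other genes. Rps15a (20.1 and 183 TPM) and Rps20 (43.8 and 426 TPM) were also low, and their representative transcripts are the longest of the family at 5130 and 3706 nt. Representative transcripts were picked from the annotation by length and need not be the ones expressed. Rpl34 differed most in its standing between the tables, with a mean of 309 TPM in livers and 36.7 TPM in AML12. Whether these levels come from the transcripts or from the way reads were assigned was not tested.

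The copies restricted to other tissues were near 0. Rpl3l, the form of Rpl3 made in heart and skeletal muscle, was at 0.12 to 0.40 TPM in the livers and 0.09 to 0.40 TPM in AML12. Rpl10l and Rpl39l, the testis forms of Rpl10 and Rpl39, stayed at or under 0.30 TPM in every library that lists them. Rpl32l stayed under 1 TPM in every liver and averaged 1.22 TPM in AML12. With Rpl3l, Rpl39l and Rpl32l left out of the livers and Rpl3l, Rpl39l and Rpl10l out of AML12 by the minimum mean of 1 TPM, 77 members in the livers and 78 in AML12 were tested with limma on log2(TPM + 1) beside all other genes of their table.

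In the livers, ribosomal protein mRNAs were more abundant after rMSA. Of the 77 members, 38 passed an adjusted p of 0.05 as higher (49.4%) and 0 as lower, where 21.8% of all 11398 tested genes passed as higher and 8.38% as lower. In 62 members every rMSA liver lay above every saline liver (80.5%, against 32.7% of all genes). The median member changed by a log2 of 0.36, against 0.12 for the median of all tested genes, and 74 members had a positive sign. The large subunit (24 of 46 members passing, median 0.36) and the small subunit (14 of 31, median 0.35) gave like values. By the unadjusted p, 56 members were under 0.05.

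Rps12, a protein of the small subunit, had the largest change. It was at 322, 302 and 279 TPM in the saline livers and at 473, 672 and 588 TPM in the rMSA livers, with no overlap. The log2 fold change was 0.93 ± 0.14 (SE) at an adjusted p of 0.00173. Rpl3, which shapes the peptidyl transferase centre, followed with 207, 225 and 195 TPM against 315, 431 and 388 TPM (0.84 ± 0.13, adjusted p = 0.00201). In both genes rMSA liver 2 was the highest and rMSA liver 1 the lowest of the treated livers.

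Rps19, the gene most often mutated in Diamond-Blackfan anaemia, stood at 180, 167 and 207 TPM with saline and at 260, 358 and 290 TPM with rMSA (0.70 ± 0.14, adjusted p = 0.00676). Rpl39 lines the peptide exit tunnel and rose from 166 ± 17.0 to 272 ± 65.8 TPM (0.69 ± 0.17, adjusted p = 0.0155). Among the treated livers rMSA liver 2 held 348 TPM and the others 237 and 230 TPM. Rpl31, beside the exit of the tunnel, rose from 144 ± 14.1 to 232 ± 20.8 TPM (0.69 ± 0.11, adjusted p = 0.00280). Rpl12, at the base of the stalk, rose from 367 ± 26.0 to 583 ± 77.5 TPM (0.66 ± 0.12, adjusted p = 0.00471).

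Members known for work outside the particle, and the stalk proteins, all had positive values, as did 74 of the 77 tested members in all. Rpl5 and Rpl11, which bind Mdm2 together with the 5S rRNA, both passed, Rpl5 at 0.54 (adjusted p = 0.0452) and Rpl11 at 0.35 (adjusted p = 0.0319). Rpl11 stood at 522, 453 and 481 TPM with saline and at 586, 661 and 609 TPM with rMSA. Rps27a, made as a fusion with ubiquitin, also passed (0.38, adjusted p = 0.0407). Rps3, a DNA repair endonuclease as well as a ribosomal protein, was at 0.30 (adjusted p = 0.0677), Rpl13a, a part of the interferon-gamma translational silencer, at 0.08 (adjusted p = 0.702) and Rpsa, the laminin receptor precursor, at 0.16 (adjusted p = 0.347). The stalk proteins Rplp0 (0.36, adjusted p = 0.0526), Rplp1 (0.35, adjusted p = 0.0950) and Rplp2 (0.25, adjusted p = 0.138) missed the threshold.

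At the other end stood 4 members with no difference beyond the spread. Rps2, the most abundant member of the livers, was at 1497 ± 117 TPM with saline and 1547 ± 118 TPM with rMSA (0.05 ± 0.11, adjusted p = 0.793). Rps28 was at 376 ± 20.9 and 373 ± 11.4 TPM, Rps27 at 727 ± 36.3 and 674 ± 145 TPM, and Rpl36 at 335, 351 and 434 TPM and at 293, 308 and 364 TPM. The last 3 were the only tested members with a negative sign (-0.01, -0.13 and -0.21). Measured against the median member of each library, Rps28, Rps27 and Rpl36 passed as lower, with adjusted p of 0.0397, 0.0224 and 0.0204 (23.2% of all genes did), and Rps12 and Rpl3 passed as higher (adjusted p = 0.0103 and 0.0238, with 7.36% of all genes). These 4 members were singled out after their values were seen.

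**Figure D2:**
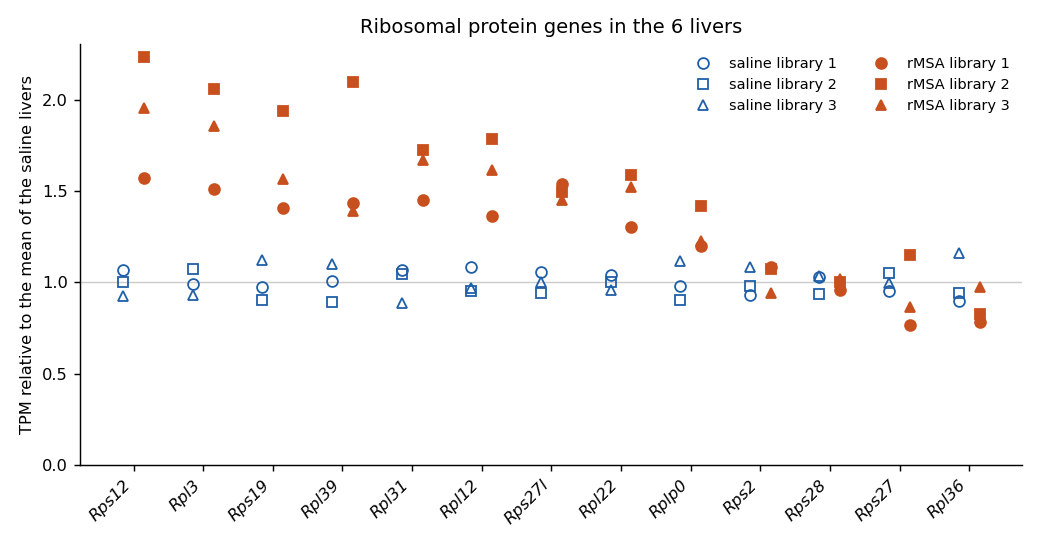
TPM of 13 ribosomal protein genes in each of the 6 livers, divided by the mean of the 3 saline livers (vertical axis, from 0). Blue open symbols are saline and orange filled symbols rMSA, with shapes for library numbers 1 to 3. The 6 members on the left are the largest rises, Rps27l and Rpl22 have no overlap between groups, and Rps2, Rps28, Rps27 and Rpl36 overlap around 1.

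The count in the livers depended on the scaling and on single libraries. With each library centred on its median tested gene, 8 members passed (Rpl3, Rpl12, Rpl22, Rpl23a, Rpl31, Rps12, Rps19 and Rps27l), where 14.4% of all genes passed as higher, and the median member was at 0.22. With the trend of each library on transcript length removed 10 passed, where 1897 of 11276 genes passed as higher. The median member was then at 0.19. With median centring or the length trend removed, the share of members passing as higher was below that of all genes. Blocked on the replicate number 13 members passed, where 1519 of 11398 genes passed as higher. The count was 24 without saline library 1 and 15 without saline library 2, where 2074 and 1740 of all 11398 genes passed as higher. Without rMSA library 2 it was 13 of 77 (1699 of 11398 genes), and without rMSA library 3 it was 20 (1745 genes). Of the 77 members 70 were highest in rMSA library 2 among the rMSA livers. No member reached a log2 of 1.

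Markers of some other cell types moved with the same groups. Their counts are to be read against the 21.8% of all liver genes that passed as higher and the 8.38% that passed as lower. Of the 9 stellate cell and fibroblast markers 7 were higher and 0 lower, with a summed level of 120 to 247 TPM in saline livers and 283 to 362 TPM in rMSA livers. Of the 5 tested cholangiocyte markers 3 were higher, with sums of 13.5 to 19.2 against 25.9 to 35.7 TPM, and of the 5 neutrophil markers 3 were higher, with sums of 11.8 to 17.5 against 25.9 to 27.7 TPM. No marker of these lists was at 0 in either group, and 2 of 11 hepatocyte markers passed as higher and 6 as lower. The hepatocyte markers summed to 69135 to 88716 TPM with saline and 83484 to 87929 TPM with rMSA, so their sums overlapped. Of 8 macrophage markers 1 passed each way, of 8 endothelial markers 1 as higher, of 4 tested lymphocyte markers 1 each way and of 5 erythroid markers none. Of 8 keratin and progenitor genes 5 passed as higher and 0 as lower, among them Krt18 (1.35, adjusted p = 0.000144), Krt8 (1.33, adjusted p = 0.000272) and Spp1 (2.13, adjusted p = 0.00158), and the list summed to 334 to 408 TPM with saline and 870 to 1176 TPM with rMSA. The part of these lists in the ribosomal protein result was not tested.

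In AML12 cells the same mRNAs were less abundant after rMSA. Of the 78 tested members 6 passed as lower (7.69%) and 0 as higher, where 1.89% of all 10826 tested genes passed as lower and 5.9% as higher. The 6 were Rpl3, Rpl12, Rpl27a, Rpl10a, Rpl4 and Rps4x. In 57 members every rMSA library lay below every vehicle library (73.1%, against 14.2% of all genes), and 77 members had a negative sign. The median member changed by -0.22 and the median of all tested genes by 0.06. The hepatocyte markers summed to 314 to 390 TPM with vehicle and 215 to 273 TPM with rMSA. Ttr fell from 171 ± 29.0 to 51.2 ± 12.2 TPM (-1.73, adjusted p = 0.00327) and Apob rose from 12.8 ± 1.90 to 30.7 ± 7.23 TPM (1.18, adjusted p = 0.0217), 1 of 6 tested markers each way, and their part in this result was not tested.

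Rpl3 was again among the largest changes, with 2999, 3074 and 3107 TPM under vehicle and 2226, 2279 and 2237 TPM under rMSA. The groups were far apart relative to their spread, and the log2 fold change was -0.44 ± 0.07 at an adjusted p of 0.00217. Rpl12 went from 6041, 6710 and 6234 TPM to 4314, 4697 and 5118 TPM (-0.43 ± 0.10, adjusted p = 0.0288). Rpl4, a large-subunit protein whose loop reaches into the exit tunnel, went from 3702, 3793 and 3894 TPM to 3017, 3113 and 3107 TPM (-0.30 ± 0.07, adjusted p = 0.0235). Rpl27a (-0.41 ± 0.10, adjusted p = 0.0316), Rpl10a (-0.36 ± 0.09, adjusted p = 0.0368) and Rps4x (-0.25 ± 0.06, adjusted p = 0.0319) did not overlap between the groups either.

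Not every member with a large change in the livers passed here. Rps12 was at 6956, 7240 and 7517 TPM with vehicle and at 5876, 6428 and 6669 TPM with rMSA, lower in every library but not past the test (-0.20, adjusted p = 0.673). Rpl39 (-0.04) and Rpl41 (-0.03, adjusted p = 0.979) were near 0. Rpl5 (-0.22, adjusted p = 0.122) and Rpl11 (-0.25, adjusted p = 0.549) missed the test. Rpl18 was the only tested member with a positive sign (0.04, adjusted p = 0.975).

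The number that passed in this comparison rested on the insulin libraries that enter the shared estimate of the spread. With only the vehicle and rMSA libraries in the fit 46 members passed as lower (7.39% of all genes), and without insulin libraries 1 and 2 the count was 40 (6.74%). Leaving out any single vehicle or rMSA library left 1 or 2, where 104 to 116 of 10826 genes passed as lower. Median centring left 0 (333 of all genes as lower) and scaling to the genes outside the family 2 (371 genes). Neither count was above the share of all genes. A fit blocked on the replicate number left 4 (169 genes). The median member was at -0.12 to -0.30 with median centring, quantile normalization, scaling to the genes outside the family or the length trend removed.

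With insulin in both groups, 19 of the 78 members passed as lower with rMSA (24.4%) and 0 as higher, where 2.73% of all genes passed as lower and 14.5% as higher. The rMSA comparisons with and without insulin share no library, but each shares its groups with the insulin comparisons. Groups did not overlap in 25 members that were lower (4.81% of all genes) and in 1 that was higher, Rpl34 (20.7%). Rpl3, Rpl12, Rpl27a, Rpl10a and Rpl4 passed as lower here as they did without insulin, and Rps4x did not (-0.09, adjusted p = 0.351). Rpl3 stood at 3017, 2614 and 3010 TPM with insulin and at 2166, 2120 and 2053 TPM with rMSA + insulin (-0.44 ± 0.07, adjusted p = 0.00142). Rpl4 stood at 4344, 4283 and 3779 TPM and at 3026, 3260 and 3002 TPM (-0.42 ± 0.07, adjusted p = 0.00256). For both genes insulin library 3 also lay above every rMSA + insulin library.

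The largest change was that of Rps27 (-0.64, adjusted p = 0.0395), whose groups overlapped: 7205, 8162 and 4431 TPM with insulin and 3837, 4593 and 3906 TPM with rMSA + insulin. Rpl17 was at 7090, 7254 and 5001 TPM with insulin and at 4202, 4975 and 4233 TPM with rMSA + insulin (-0.51 ± 0.14, adjusted p = 0.0255), and insulin library 3 stood just above the highest of the latter. Rps26 was at 10130, 12130 and 8151 TPM and at 7026, 7731 and 6606 TPM (-0.49 ± 0.13, adjusted p = 0.0238). In all 3 genes insulin library 3 was the lowest of the insulin libraries. Rpl30 (-0.42, adjusted p = 0.0326) had no overlap either. The median member was at -0.30, and at -0.057 once insulin libraries 1 and 2 were left out. Then 7 members passed as lower (Rpl3, Rpl4, Rpl6, Rpl7, Rpl22, Rpl23 and Rpl23a, with 17.0% of all genes) and Rpl34 as higher (13.2%).

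Other single libraries also moved this count by more than 1.5 times. It was 65 without insulin library 3 (4.9% of all genes) and 9 without insulin library 1 (204 of 10826 genes as lower). Without rMSA + insulin libraries 1, 2 and 3 it was 5, 11 and 3 (169, 159 and 141 genes). The count was 0 when only the insulin and rMSA + insulin libraries were fitted (0.351% of all genes). In that fit 21 members had an unadjusted p under 0.05. Blocked on the replicate number, 12 members passed, where 246 of 10826 genes passed as lower.

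**Figure D3:**
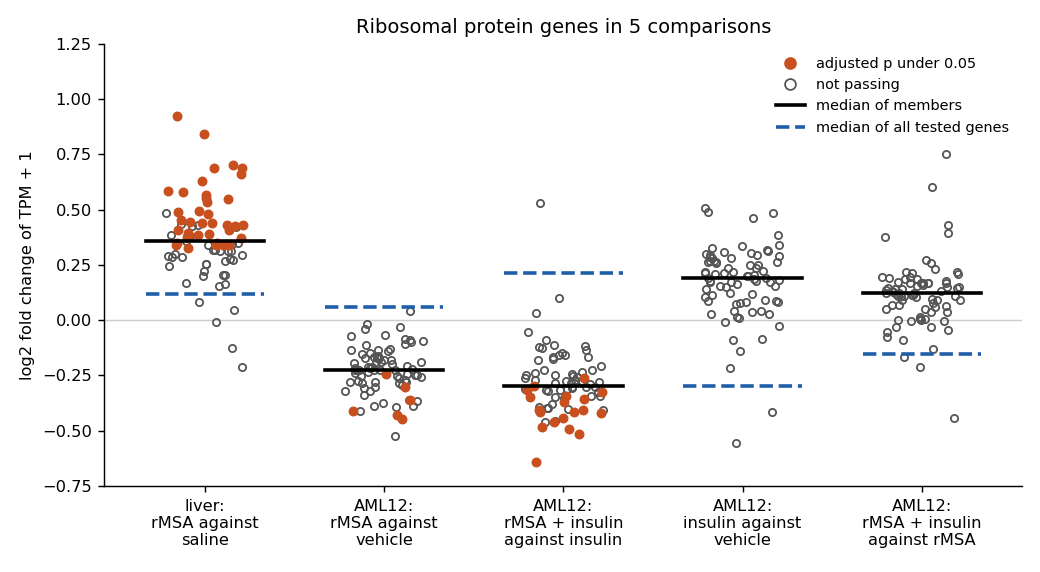
Log2 fold change of TPM + 1 (vertical axis) of each tested ribosomal protein gene in 5 comparisons: 77 points for the livers and 78 for each AML12 comparison, spread sideways for visibility. Orange points passed an adjusted p of 0.05, black bars mark the median member and blue dashed bars the median of all tested genes. Members sat above the median gene in the livers (0.36 against 0.12) and below it for rMSA in AML12 (-0.22 against 0.06, and -0.30 against 0.21 with insulin).

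Insulin by itself changed no member past the test, and neither did insulin added to rMSA. For insulin against vehicle 0 of 78 members and 0.0% of all genes passed in limma, although 13 members had an unadjusted p under 0.05, and the median member was at 0.19 against -0.30 for all genes. The groups did not overlap in 8 members that were higher (4.35% of all genes) and in Rpl7 and Rpl32l, which were lower (11.8%). The result hung on insulin library 3: without it 60 members passed, 58 higher and 2 lower, where 7.14% of all genes passed as higher and 61.4% as lower. For rMSA + insulin against rMSA 0 members passed (10 with an unadjusted p under 0.05), where 2.95% of all genes passed as higher and 1.1% as lower, and the medians were 0.12 and -0.15. Groups did not overlap in 24 members that were higher (18.6% of all genes) and in Rpl3, Rpl6, Rpl7, Rpl23a and Rpl39, which were lower (37.1%). Without insulin libraries 1 and 2 in the fit 20 members passed as higher (14.4%) and 3 as lower (36.8%). The difference between the rMSA responses with and without insulin was tested as an interaction, which 0 members and 0.0369% of all genes passed, with 1 member at an unadjusted p under 0.05 (Rpl34).

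Rpl34, a protein of the large subunit, was chosen after its values were seen. It was at 32.2, 42.3 and 35.3 TPM with vehicle, at 29.5, 25.9 and 28.9 TPM with rMSA, at 23.0, 45.6 and 33.8 TPM with insulin, and at 49.6, 47.2 and 47.3 TPM with rMSA + insulin. The rMSA + insulin libraries were the 3 highest of the 12. The log2 fold change was 0.53 against insulin (adjusted p = 0.0975) and 0.75 against rMSA (adjusted p = 0.0628), and the interaction was 0.89 ± 0.28 (adjusted p = 0.558).

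In summed TPM the insulin libraries had a wider spread than any other group (SD 48130, against 7374 to 16291 TPM in the other AML12 groups). Against the mean of vehicle, the median member of insulin libraries 1, 2 and 3 was at 0.25, 0.38 and -0.05 on the log2 scale, while the median tested gene was at -0.33, -0.59 and 0.03. In 65 of 78 members libraries 1 and 2 both lay above library 3, and in 63 both lay above every vehicle library. Library 3 lay inside the range of the vehicle libraries for 42 members. The vehicle and insulin values of Rpl35, at the mouth of the exit tunnel, show this: 7347, 8085 and 7947 TPM with vehicle, and 11474, 13752 and 8235 TPM with insulin.

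The deviation of insulin libraries 1 and 2 went with transcript length, as it did in some other AML12 libraries. The 38 members with representative transcripts under 700 nt had median deviations of 0.33 and 0.42 in libraries 1 and 2, and the 16 members of at least 1000 nt 0.21 and 0.13. In library 3 the same medians were -0.05 and -0.04. Across the 78 members the Spearman correlation of deviation and length was -0.33, -0.36 and -0.03 in insulin libraries 1 to 3, and across all tested genes it was -0.58, -0.42 and -0.02. In rMSA + insulin libraries 1 to 3 it was -0.31, -0.38 and -0.18 across members, and -0.30, -0.37 and -0.23 across all tested genes. Among the other AML12 libraries the member correlation ran from -0.38 (vehicle library 3) to 0.19 (vehicle library 1). Members of a library share its depth and processing, so these correlations are descriptions. Across members the correlation of GC content with the deviation was -0.052, 0.45 and -0.20 in insulin libraries 1 to 3. Among these it was clearly positive in library 2 only. In rMSA + insulin libraries 1 to 3 it was 0.48, 0.41 and 0.21. The other AML12 libraries ran from -0.29 (vehicle library 1) to 0.25 (vehicle library 3). Across all tested genes the fold change of insulin against vehicle had a Spearman correlation of 0.48 with GC content and -0.47 with length. Rpl7, a protein of the large subunit, had the opposite order and stood at 3336, 3336 and 3102 TPM with vehicle and at 2857, 1734 and 2933 TPM with insulin. The parts of length and GC content in the insulin comparisons were not tested. With the trend of each library on length removed 0 members passed for insulin against vehicle (0.103% of all genes as higher and 0.0188% as lower, with 19 members at an unadjusted p under 0.05) and 41 passed as lower for rMSA + insulin against insulin (10.3%).

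**Figure D4:**
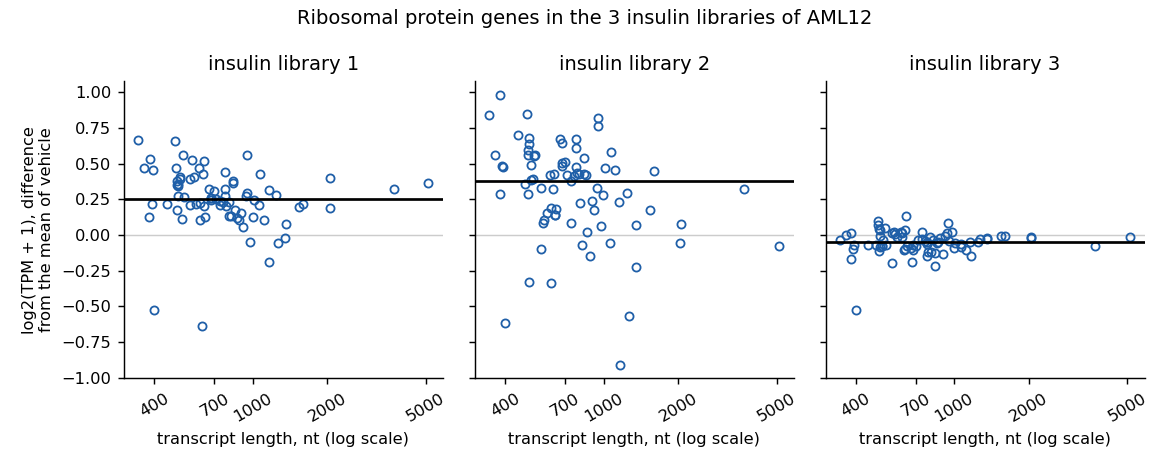
Difference of log2(TPM + 1) from the mean of the 3 vehicle libraries (vertical axis) against transcript length in nt (horizontal axis, log scale) for the 78 tested ribosomal protein genes in insulin libraries 1, 2 and 3 of AML12. The black line is the median member, at 0.25, 0.38 and -0.05, and the points of libraries 1 and 2 fall with length while those of library 3 stay near 0.

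The rMSA values of the livers and of AML12 can be set side by side for each member. Of the 77 members tested in both tables, 44 were higher in every rMSA liver than in every saline liver and lower in every rMSA-treated than in every vehicle-treated AML12 library (57.1%, against 5.71% of the 9511 genes tested in both tables). These are 71.0% of the 62 that were higher in the livers and 77.2% of the 57 that were lower in AML12. Among all tested members, 80.5% were higher in the livers and 73.1% lower in AML12 without overlap. Members that rose in the livers were thus no more often lower in AML12 than members at large. Rpl3, Rpl10a, Rpl12 and Rps4x passed the test in both tables, higher in the livers and lower in AML12 (4 of 77, or 5.19%, against 0.620% of all genes). Rpl3 was at 0.84 in the livers and -0.44 in AML12, and Rpl12 at 0.66 and -0.43. The systems differ in the cells, the dose, the time of exposure and the table, which cannot be told apart.

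**Figure D5:**
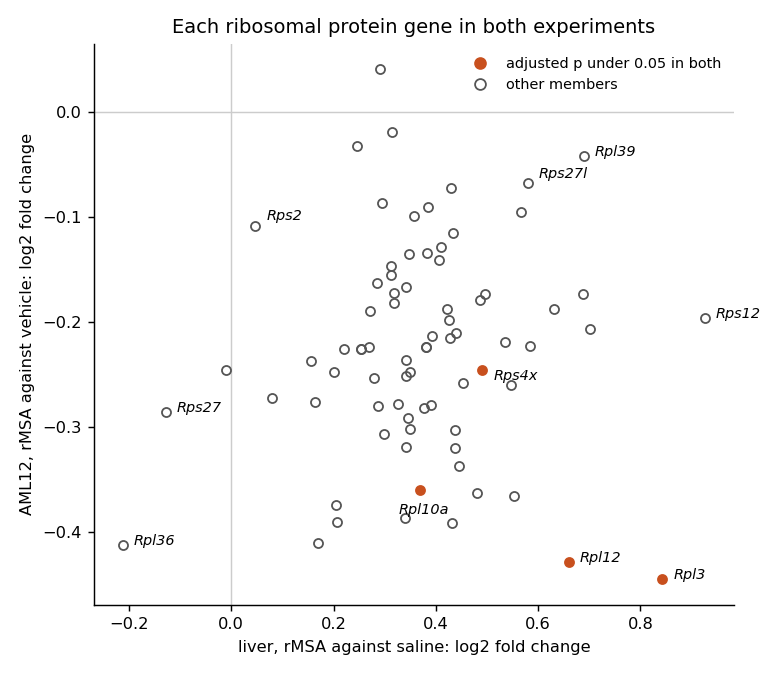
Log2 fold change with rMSA in the livers (horizontal axis) and in AML12 cells without insulin (vertical axis) for each of the 77 ribosomal protein genes tested in both tables. Orange points (Rpl3, Rpl10a, Rpl12 and Rps4x) passed an adjusted p of 0.05 in both, and nearly all points lie to the right of 0 and below 0.

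Several ribosomal proteins have a paralog that can take their place, and the shares within such pairs were followed. Rps27l, a p53 target, made up 27.6%, 23.6% and 25.7% of the TPM of Rps27 and Rps27l in saline livers and 40.8%, 30.8% and 36.6% in rMSA livers. The groups did not overlap, since Rps27l rose from 250 ± 13.9 to 374 ± 11.0 TPM (0.58 ± 0.09, adjusted p = 0.00215) while Rps27 did not pass. In AML12 the share was 10.2% to 10.9% with vehicle and 11.4% to 12.6% with rMSA. Of the windows of Rps27, 98.6% occur in transcripts of 9 other genes, so its level is uncertain.

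The pair Rpl36a and Rpl36al rose together in the livers, Rpl36a from 195 ± 18.8 to 290 ± 38.3 TPM (0.57, adjusted p = 0.0104) and Rpl36al, which lies outside the naming rule, from 183 ± 46.5 to 291 ± 11.2 TPM (0.70, adjusted p = 0.0196). In AML12 the share of Rpl36al in the pair was 23.0% to 23.7% with rMSA + insulin, above the 16.4% to 20.7% of all other libraries. Rpl22, whose protein also binds viral and telomerase RNA, rose from 60.9 ± 2.45 to 89.7 ± 9.12 TPM in the livers (0.55, adjusted p = 0.00613). Its paralog Rpl22l1 held 25.8% to 34.3% of the pair in the livers and 44.9% to 56.1% in AML12. These pairs were compared as descriptions, with no test of the shares.

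Other genes of the translation machinery were counted beside the family, to be read against the 21.8% of all liver genes that passed as higher and the 8.38% that passed as lower. Of 19 translation factors and other TOP mRNAs, 6 passed as higher and 0 as lower in rMSA livers, with a median of 0.27. They included the elongation factor Eef1a1 (3239 ± 270 to 4750 ± 304 TPM, 0.55, adjusted p = 0.0103) and Tpt1 (0.71, adjusted p = 0.00439). Of 50 ribosome biogenesis factors 5 passed as higher and 2 as lower (median 0.06), and of 78 mitochondrial ribosomal proteins 15 and 2 (median 0.20). Of 75 tested subunits of the respiratory chain and ATP synthase, another large set of short abundant mRNAs, 4 passed as higher and 1 as lower (median 0.06).

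Among 18 tested genes of mTORC1 and the regulators of TOP translation, 4 passed as higher in the livers and 1 as lower, shares near those of all genes (21.8% and 8.38%), so these counts are no result about the group. Single genes of it passed. Mtor, the kinase of mTORC1, rose from 11.0 ± 0.76 to 22.5 ± 2.33 TPM (0.96, adjusted p = 0.000839) and Myc, which drives ribosome production, from 5.51 ± 0.44 to 9.37 ± 0.57 TPM (0.67, adjusted p = 0.00582). Larp1 fell from 56.9 ± 1.89 to 39.2 ± 4.57 TPM (-0.53, adjusted p = 0.00871). Kinase activity was not measured.

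In AML12 few members of these lists passed with rMSA alone, where 5.9% of all genes passed as higher and 1.89% as lower. Of the translation factors and other TOP mRNAs 1 of 19 passed as lower (Eif3f, -0.37, adjusted p = 0.00658) with a median of -0.18. Of the biogenesis factors 1 passed as higher and 2 as lower (median -0.01), and of the mitochondrial ribosomal proteins 1 each way (median 0.03). With insulin in both groups 12 of 50 biogenesis factors passed as higher and 0 as lower, where 14.5% and 2.73% of all genes did. Among them were Bysl (0.74, adjusted p = 0.00173) and Nop2 (0.52, adjusted p = 0.00242), the opposite sign to the ribosomal proteins. The biogenesis factors had a median of 0.27, near the 0.21 of all genes. The all-gene median was -0.13 without insulin libraries 1 and 2. In the same comparison 7 mitochondrial ribosomal proteins passed as higher and 2 as lower. For rMSA + insulin against rMSA 9 biogenesis factors were higher and 0 lower, and 8 mitochondrial ribosomal proteins were higher and 0 lower, where 2.95% and 1.1% of all genes were.

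Eef1a1, itself a TOP mRNA, had another order among the insulin libraries. It was at 22228, 21052 and 19989 TPM with vehicle and at 13856, 6594 and 20066 TPM with insulin, so the libraries in which ribosomal proteins were highest held the least of it. The list as a whole had a median of -0.30 for insulin against vehicle with 0 of 19 passing.

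The p53 targets, which Rpl5 and Rpl11 can raise by binding Mdm2, were counted too. In the livers 2 of 13 passed as higher and 4 as lower, where 21.8% and 8.38% of all genes did. Cdkn1a, the cell cycle inhibitor p21, was among the lower ones. It was at 156, 112 and 180 TPM with saline and 21.4, 31.5 and 51.1 TPM with rMSA (-2.14 ± 0.29, adjusted p = 0.00117). In AML12 4 of 14 passed as higher with rMSA and 0 as lower, where 5.9% and 1.89% of all genes did. Cdkn1a was among the higher ones, at 202, 187 and 203 TPM with vehicle and 263, 257 and 264.3 TPM with rMSA (0.40 ± 0.08, adjusted p = 0.0111). With insulin in both groups 6 of 14 passed as higher and 0 as lower, where 14.5% and 2.73% of all genes did.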

How the data were processed

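The authors depleted ribosomal RNA and sequenced on a BGISEQ machine, and per the labels mRNA was also purified with oligo(dT) beads. The submitters' processing notes name Trimmomatic 0.33, STAR 2.5.2b, featureCounts, Subread 1.6.0 and the genome GRCm38. How TPM were calculated, which annotation was used and how reads fitting several genes were handled was not given in the sources used here. The authors deposited TPM rounded to 2 decimals, with no read counts, so their DESeq2 test was not repeated. Among the liver symbols, 23 that had turned into dates were repaired.

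Genes averaging 1 TPM or more were fitted with limma 3.58.1 in R 4.3.3 on log2(TPM + 1), with 1 mean per group and the variance trended on level, and p-values were adjusted by Benjamini-Hochberg over all tested genes. All 12 AML12 libraries entered the same fit. The code was tested on simulated data. Lengths and shared windows came from GENCODE M21 transcripts and start sites from RefSeq. The representative transcript of a gene was the one of lower-median length among its protein-coding transcripts in the basic annotation, whether or not it was the one expressed. The members, lists and tests were chosen with earlier results of these data known. Named members are the 6 largest changes each way among those that pass without overlap, the 5 most abundant, copies, members under 1 TPM, members with a role outside the particle, and up to 4 genes of another list by p. Vehicle and rMSA libraries of the same number deviated together (correlations 0.53, 0.14 and 0.58), a pairing that rests on these correlations, since the labels give only numbers.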

Additional observations from a re-analysis of the deposited data

Results flagged for a closer look

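The summed TPM of the ribosomal protein genes was 27.1% higher in the livers of rMSA-treated mice, where each of the 3 rMSA libraries lay above each of the 3 saline libraries. In AML12 cells it changed by -14.1% with rMSA, where each of the 3 rMSA libraries lay below each of the 3 vehicle libraries. The opposite directions drew attention, and the difference between the 2 systems was not tested, because their tables were normalized separately.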

How the results depend on the processing

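The authors' TPM hold no depth, so none of these values carries counting error. For the livers the count of members passing was 25 with no filter on low values, where 2526 of 16533 genes passed as higher. It was 8 with median centring (1642 of 11398 genes) and 10 with the length trend removed (1897 of 11276). Centred on the median member it was 5, with 2 higher and 3 lower (839 and 2647 of 11398 genes). It was 0 with a fold threshold of 1 on the log2 scale (677 genes higher) and 13 with the replicate number as a block (1519). For rMSA against vehicle it was 0 with median centring, 2 scaled to the genes outside the members, 1 centred on the median member, 12 with the length trend removed, 0 with the fold threshold, 46 with only the groups compared and 40 without insulin libraries 1 and 2. For rMSA + insulin against insulin it was 2 with median centring and 11 with quantile normalization (740 and 875 of 10826 genes lower). Centred on the median member it was 8, with 6 higher and 2 lower (3446 and 50 genes). It was 41 with the length trend removed (1099 of 10640 genes lower) and 12 with the replicate block (246 of 10826). With the fold threshold and with only the groups compared it was 0 (44 and 38 genes lower). For rMSA + insulin against rMSA it was 1 with median centring, 4 with quantile normalization, 1 scaled to the genes outside the members, 2 with the length trend removed, 13 with only the groups compared and 23 without insulin libraries 1 and 2. The replicate block moved no other count by more than 1.5 times, and vehicle with rMSA was the only comparison in which every same-numbered pair correlated over 0.1. The correlations were 0.095, 0.79 and 0.80 for insulin with rMSA + insulin, 0.050, -0.41 and -0.39 in the livers, 0.024, -0.062 and -0.66 for vehicle with insulin and 0.11, -0.23 and -0.63 for rMSA with rMSA + insulin. Leaving out each library in turn gave 13 to 37 members in the livers, where 1699 to 2231 of 11398 genes passed as higher. It gave 1 to 2 for rMSA against vehicle (104 to 116 of 10826 genes lower). For rMSA + insulin against insulin it gave 3 to 65 (141 to 623 genes lower). It gave 0 to 60 for insulin against vehicle, 0 to 0 for rMSA + insulin against rMSA and 0 to 1 for the interaction.

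The median member was at 0.22 (median centring) and 0.19 (length trend removed) in the livers. For rMSA against vehicle it was at -0.29, -0.12, -0.30 and -0.30 with median centring, quantile normalization, scaling to the genes outside the members and the length trend removed. For rMSA + insulin against insulin it was at -0.55 with median centring, -0.14 with quantile normalization and -0.057 without insulin libraries 1 and 2. For insulin against vehicle it was at 0.58 with median centring, 0.061 with quantile normalization and -0.046 without insulin libraries 1 and 2, and for rMSA + insulin against rMSA at 0.33 with median centring and 0.076 with quantile normalization. Leaving out single libraries gave medians of 0.28 to 0.42, -0.26 to -0.19, -0.42 to -0.21, 0.10 to 0.32 and 0.08 to 0.17 in the order of comparisons liver, rMSA, rMSA with insulin, insulin, and insulin with rMSA. The summed TPM with ribosome constituents of other names added was planned and is not reported here. Among the members named, 262 values of single genes kept their direction but no longer passed under an alternative, 106 newly passed and 3584 kept their side. Those that changed sign did so when centred on the median member, which sets the family near 0 by construction: Rpl11 (-0.031) and Rpl10a (-0.010) in the livers, Rps4x (0.00604) for rMSA against vehicle and Rpl5 (0.067) for rMSA + insulin against insulin. The cause of these changes was not tested.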
